A study of Mus musculus with 4 samples.

Results

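Gene-end sites are stretches of open chromatin found at most 1 kb from a start or end of some protein-coding gene that carried an ATAC-seq peak in all 4 libraries of a study of mouse chondrocytes. In ATAC-seq the transposase Tn5 inserts adapters into accessible DNA, so that a pile of sequenced tags marks an open site. The chondrocytes came from the knee cartilage of newborn C57BL/6 mice and were taken at passage 0 (P0), soon after plating, or at passage 8 (P8), after serial culture on plastic in serum, with 2 libraries for each passage. The labels name no treatment or genetic change in either group, and the sources used here do not say whether the libraries of a passage came from separate animals or cultures, so the p-values measure the spread between these libraries, which may be technical. The peak lists told the libraries apart without their replicate numbers, and they are called P0 library A, P0 library B, P8 library A and P8 library B. The members were chosen by the peak calls themselves, so that their presence in every library is not a result.

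Merging of overlapping peaks gave 172311 sites over the 4 libraries, of which 170325 lay on chromosomes 1 to 19 and X. A peak in every library was found at 55259 of these, and 13792 of them were gene-end sites, which is 8.00% of all merged sites and 25.0% of the sites open in all 4 libraries. They lay at the ends of 12796 of 21631 protein-coding genes (59.2%). The 4 libraries held from 89610 to 145703 peaks. The lowest background of the peak caller was 1.42 and 1.18 tags at P0 (libraries A, B) against 1.02 and 0.979 tags in the P8 libraries. It rises with depth, so by this measure both P8 libraries were the shallower ones. Read totals were not known. The label of the tissue was checked against marker genes. All 8 chondrocyte markers, among them Col2a1, Acan and Sox9, had a gene-end site, against 1 of 8 blood and macrophage markers (Spi1), 2 of 6 endothelial markers (Kdr and Tek), 1 of 6 muscle markers (Ckm), 2 of 4 neural and glial markers (Tubb3 and Snap25) and 0 of 4 epithelial markers. The check depends on the markers chosen. Of the 28 genes of the cartilage list below, which includes these 8, 19 (67.9%) had a gene-end site, against 59.2% of all protein-coding genes. The genes of that list without a site all lay outside these 8, and Matn1, Epyc, Snorc and Ucma were among them.

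Most active mammalian genes start in a nucleosome-poor promoter, where general transcription factors and RNA polymerase II assemble. Many such promoters lie in CpG islands, stretches rich in the dinucleotide CpG that stay unmethylated and open in most cell types, and they serve housekeeping genes such as those of ribosomes, mitochondria and proteasomes. Promoters poor in CpG more often belong to tissue-restricted or inducible genes and open where the right activators are present. Chondrocytes make the collagens and proteoglycans of cartilage under the control of Sox9, and in monolayer culture they lose this phenotype and take on features of fibroblasts, a process called dedifferentiation.

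The RefSeq promoter windows of 8 genes, which run from 250 bases before the start to 50 bases after it, show what the sites hold. Each of these windows lay wholly inside a gene-end site (GRCm38.p6 coordinates). The capitals mark letters of 10 motifs that were searched on both strands, namely CCGGAAG (ETS factors), GGGCGG (GC box), CCAAT (the CCAAT box), GCGCATGCG (NRF1), ATGGCGG (YY1), TATAAA (the TATA box), TGACGTCA (CRE), TGANTCA (AP-1), CACGTG (E-box) and CTACAATTC (ZNF143), and a match is a description and not a bound site. The windows of Tomm40 at chr7:19715380-19715679 (reverse strand), which encodes the import pore of the outer mitochondrial membrane, Hspa5 at chr2:34771840-34772139 (forward strand), the main chaperone of the endoplasmic reticulum, and Evi5l at chr8:4166317-4166616 (forward strand) belong to sites with some of the highest pileups in every library. They carried 5, 4 and 2 CCAAT boxes.
Tomm40: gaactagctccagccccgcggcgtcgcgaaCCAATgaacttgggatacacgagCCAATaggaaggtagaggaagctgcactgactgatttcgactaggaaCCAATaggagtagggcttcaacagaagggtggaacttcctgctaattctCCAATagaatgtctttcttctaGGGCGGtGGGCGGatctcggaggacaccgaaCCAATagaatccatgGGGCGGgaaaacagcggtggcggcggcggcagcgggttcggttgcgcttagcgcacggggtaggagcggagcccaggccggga
Hspa5: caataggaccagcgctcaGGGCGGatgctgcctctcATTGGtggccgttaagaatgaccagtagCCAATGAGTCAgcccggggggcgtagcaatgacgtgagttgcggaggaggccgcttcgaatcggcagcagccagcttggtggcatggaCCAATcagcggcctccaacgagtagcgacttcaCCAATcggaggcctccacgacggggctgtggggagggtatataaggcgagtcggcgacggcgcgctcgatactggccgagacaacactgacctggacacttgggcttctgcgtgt
Evi5l: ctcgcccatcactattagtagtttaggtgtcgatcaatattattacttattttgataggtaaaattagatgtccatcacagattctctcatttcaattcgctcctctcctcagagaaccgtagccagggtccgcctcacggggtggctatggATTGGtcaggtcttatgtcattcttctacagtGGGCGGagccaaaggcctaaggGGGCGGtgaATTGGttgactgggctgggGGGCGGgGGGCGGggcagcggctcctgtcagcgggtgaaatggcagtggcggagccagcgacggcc

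The windows of Col9a1 at chr1:24177360-24177659 (forward strand), a chain of cartilage collagen IX, Nrk at chrX:138914180-138914479 (forward strand), an X-linked kinase gene, and Acan at chr7:79052976-79053275 (forward strand), the core protein of the main cartilage proteoglycan, belong to sites whose pileup was lower at P8. The Col9a1 window held no CpG and none of the motifs, whereas those of Nrk and Acan held 31 CpG each and 4 and 3 GC boxes.
Col9a1: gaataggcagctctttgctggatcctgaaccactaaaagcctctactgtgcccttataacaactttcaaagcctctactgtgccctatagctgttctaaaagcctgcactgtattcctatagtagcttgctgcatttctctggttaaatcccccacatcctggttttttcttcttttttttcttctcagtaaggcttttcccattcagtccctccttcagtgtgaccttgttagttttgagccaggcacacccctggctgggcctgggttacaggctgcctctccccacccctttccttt
Nrk: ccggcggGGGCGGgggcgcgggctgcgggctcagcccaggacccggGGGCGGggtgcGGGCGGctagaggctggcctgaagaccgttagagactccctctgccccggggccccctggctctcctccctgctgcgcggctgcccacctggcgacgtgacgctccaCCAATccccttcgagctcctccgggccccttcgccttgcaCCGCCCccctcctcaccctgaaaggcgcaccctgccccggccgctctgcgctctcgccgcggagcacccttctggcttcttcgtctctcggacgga
Acan: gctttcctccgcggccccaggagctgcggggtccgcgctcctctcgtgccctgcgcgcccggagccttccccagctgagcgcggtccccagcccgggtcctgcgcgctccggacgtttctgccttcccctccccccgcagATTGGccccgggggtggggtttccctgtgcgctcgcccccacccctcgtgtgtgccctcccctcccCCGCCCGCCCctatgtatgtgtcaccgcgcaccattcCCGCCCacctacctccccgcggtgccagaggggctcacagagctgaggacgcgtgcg

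The windows of Acta2 at chr19:34255324-34255623 (reverse strand), smooth muscle actin, a marker of contractile fibroblasts, and Fos at chr12:85473640-85473939 (forward strand), an immediate early gene whose product is a subunit of AP-1, belong to sites whose pileup was higher at P8. The Acta2 window held 6 CpG and no motif, and the Fos window held 20 CpG, a GC box and a TATA box.
Acta2: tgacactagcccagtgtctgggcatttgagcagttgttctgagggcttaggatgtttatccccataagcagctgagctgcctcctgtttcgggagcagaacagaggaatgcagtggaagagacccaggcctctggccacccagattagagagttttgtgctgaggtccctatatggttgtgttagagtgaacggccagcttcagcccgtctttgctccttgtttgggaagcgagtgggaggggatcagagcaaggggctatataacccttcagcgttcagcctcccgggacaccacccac
Fos: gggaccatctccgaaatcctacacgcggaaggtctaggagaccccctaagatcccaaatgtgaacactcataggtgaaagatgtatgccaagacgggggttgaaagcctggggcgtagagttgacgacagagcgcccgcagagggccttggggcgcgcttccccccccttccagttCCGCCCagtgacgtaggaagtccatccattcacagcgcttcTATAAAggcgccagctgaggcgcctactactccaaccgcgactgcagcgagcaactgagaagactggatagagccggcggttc

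Where the sites lay relative to genes was described first. A gene end fell inside 9700 of the 13792 sites (70.3%). The strand was known for at least 1 gene end at 11216 sites, and 9542 of these (85.1%) were near starts only, 1039 (9.26%) near 3′ ends only and 635 near both kinds of end. Ends of 2 or more genes lay near 2152 sites, and 650 sites lay between the starts of genes that point away from each other, as at divergent promoters. Of the genes of known strand, 9782 of 17274 (56.6%) had such a site at the start and 1666 (9.64%) at the other end. The share of genes with a gene-end site ran from 39.1% on chromosome X and 48.2% on chromosome 7 to 69.4% on chromosome 12. The sites had a median length of 748 bp and ran from 83 to 2413 bp. More than 1 peak of a library fell into a site at 9.08% and 17.0% of the sites at P0 and at 32.2% and 31.9% at P8 (libraries A and B).

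Open chromatin at gene ends was shared by all libraries more often than elsewhere. Of 24346 sites near a gene end in any library, 56.7% had a peak in all 4 (95% Wilson interval 56.0 to 57.3%, counting error only). The share was 29.4% (29.1 to 29.8%) of 76280 sites inside gene bodies and 27.3% (26.9 to 27.6%) of 69699 intergenic sites. This share is fixed by the same peak calls that chose the members and was not tested. Another 2100 gene-end sites missed a peak in 1 library, which was P8 library A at 1210 of them, P8 library B at 588, P0 library B at 266 and P0 library A at 36. Where they did have a peak, the median pileup of these near misses was 19 and 15 tags in the P0 libraries (A, B) against 11 and 12 tags in the P8 libraries, close to the lowest 5% of the members (18, 14, 10 and 11 tags). At the distance limit, the 298 members at 901 to 1000 bp from a gene end had median pileups of 29, 24, 15 and 17 tags (P0 A, P0 B, P8 A, P8 B), and the 281 sites just outside, at 1001 to 1100 bp, had 33, 26, 17 and 19 tags.

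Gene-end sites were, in the median, taller and wider than the other shared sites in each library. Their median pileup, the number of tags stacked at the summit, was 44 and 38 tags at P0 against 22 and 25 tags at P8. Gene-body sites open in all 4 libraries had medians of 26, 21, 15 and 17 tags and intergenic ones 25, 20, 14 and 16 tags. Since pileup grows with depth, sites were ranked within each library among the 55259 shared sites. The median percentile of gene-end sites was 76.7, 76.5, 72.0 and 72.4, against 42.8, 42.1, 45.9 and 45.7 for gene-body sites. The gap between these classes was 33.9 and 34.4 percentile points in the P0 libraries and 26.2 and 26.8 in the P8 libraries, with a mean of 30.3 ± 4.45 points (SD, n = 4 libraries). It had the same sign in 4 of 4 libraries, and the exact two-sided sign-flip permutation test counted 2 of 16 sign patterns as at least as extreme, the fewest that 4 libraries allow, so no p under 0.05 can be reached. Against intergenic sites the gap was 34.2 ± 3.25 points (SD, n = 4 libraries), with the same count of sign patterns.

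The gap was narrower for fold enrichment, which divides the pileup by the local background. Gene-end sites exceeded gene-body sites by 13.2, 19.2, 18.1 and 14.5 percentile points in fold enrichment and by 36.5, 36.7, 34.6 and 34.2 points in length. The local background of the peaks was itself higher at gene-end sites, with medians of 3.76, 3.04, 2.09 and 2.20 tags against 2.20, 1.72, 1.36 and 1.42 tags for peaks of gene-body sites. The pileup gap between the classes was smaller at P8 than at P0 (P8 minus P0, −7.68 points), with each P8 value under each P0 value. The exact two-sided permutation of 2 against 2 libraries gave p = 0.3333, which is the smallest p this design allows. The difference between passages was 0.733 points in the other direction when sites were ranked among all sites of a library. Both P8 gaps then lay between the P0 gaps. The difference was 0.130 points for fold enrichment, also inside the spread between libraries of a passage (SD 4.20 at P0 and 2.58 at P8, n = 2 each). For length it was −2.19 points. A smaller gap at P8 was thus seen in pileup among the shared sites and in length, with no clear difference in the other settings.

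**Figure D1:**
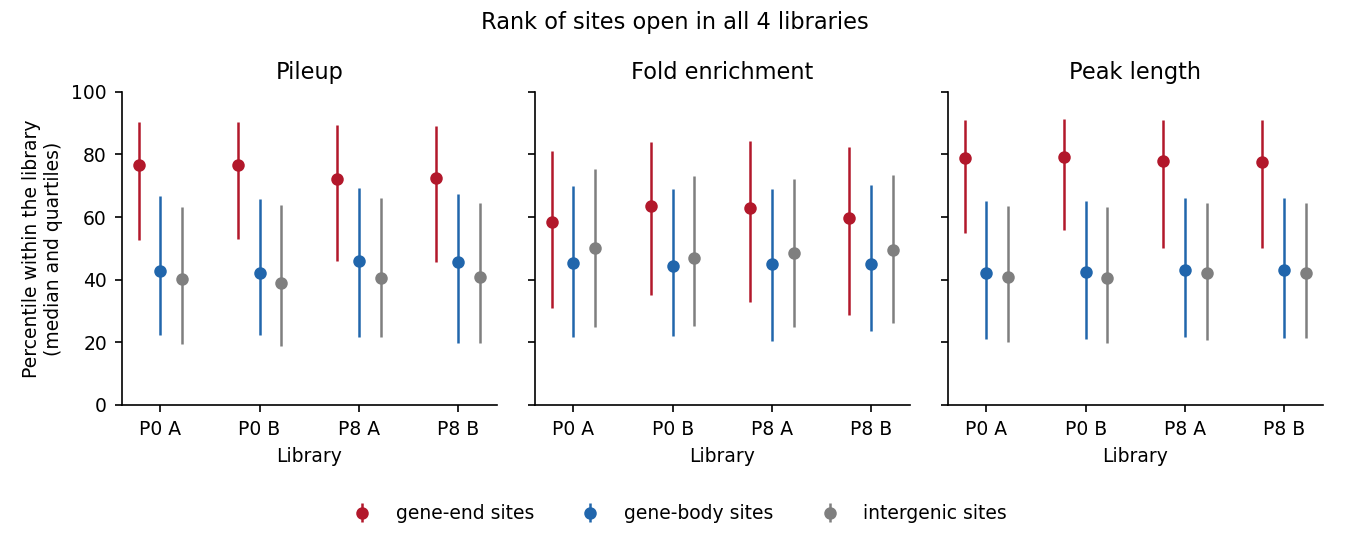
Percentile of each site within its library (vertical axis) for gene-end, gene-body and intergenic sites open in all 4 libraries, with a panel each for pileup, fold enrichment and peak length. Points are medians and bars are quartiles over sites, and the red points of gene-end sites lie above the others in each library and panel, with the largest gaps in pileup and length.

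Sites at starts stood above those at 3′ ends. Sites near starts only had a median pileup of 46, 40, 24 and 26 tags (P0 A, P0 B, P8 A, P8 B), and median percentiles of 79.1, 79.1, 76.8 and 74.7. Sites near 3′ ends only had medians of 29, 25, 16 and 18 tags and percentiles of 50.4, 53.0, 50.7 and 50.0, close to the middle of all shared sites. The 650 sites between diverging starts were the highest, with percentiles of 87.2, 88.0, 84.2 and 85.4 and a median length of 860.5 bp in P0 library A and 636 bp in P8 library A. At 8531 sites near the start of 1 gene, the median position of the summit was 4, 2, 7 and 6 bp downstream of the annotated start in the 4 libraries. The share of these summits within 250 bp of the start was 66.4% and 66.3% in the P0 libraries and 65.1% and 65.2% in the P8 libraries.

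**Figure D2:**
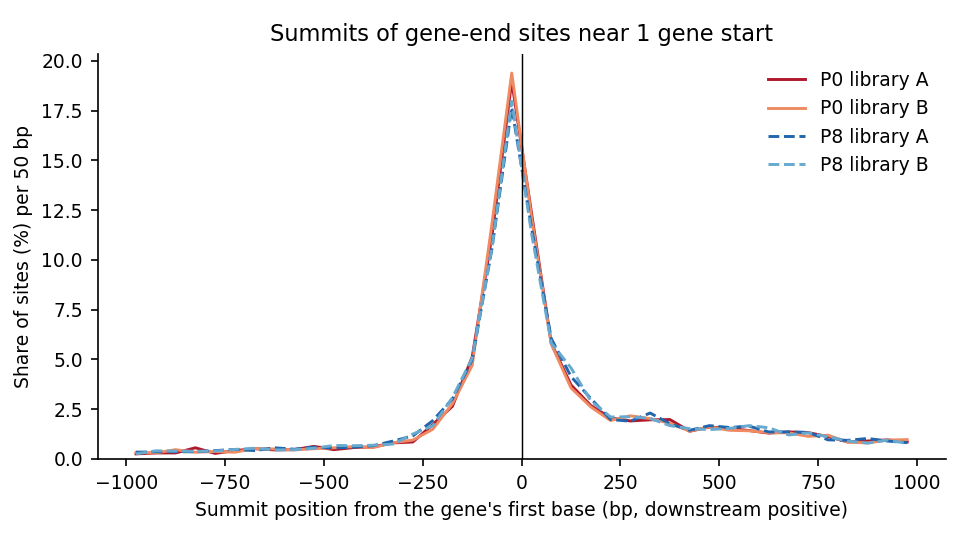
Share of the 8531 gene-end sites near 1 gene start (vertical axis, percent per 50 bp) by the position of the summit relative to the gene's annotated first base (horizontal axis, bp, downstream positive), with a line for each library. The 4 lines run on top of each other and peak at the start, with a longer tail into the gene than upstream of it.

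The highest ranks belonged to gene starts and to a run of predicted genes. By mean pileup percentile over the 4 libraries, the leading site was at the start of Hjurp, the chaperone of the centromeric histone, at chr1:88276789-88277927, with 118, 114, 81 and 84 tags (P0 A, P0 B, P8 A, P8 B). The starts of Scai (98, 100, 68 and 69 tags), Evi5l (94, 92, 76 and 77), Zyx, which encodes the focal adhesion protein zyxin (95, 94, 81 and 65), and Ifrd1 (98, 96, 66 and 68) followed in the same group. Among the other 5 of the top 10 were 4 sites on chromosome 6 between positions 47663508 and 47681816, near the predicted genes Gm40363, Gm40364, Gm40365, Gm40367 and Gm36327. These had local backgrounds of 21.8 to 26.7 tags at P0 and 32.8 to 35.1 tags at P8, against a median of 3.76, 3.02, 2.04 and 2.16 tags over the members, so their fold enrichment was only 2.60 to 3.91. Predicted genes in such a run are often copies of one another, in which case tags may be shared between them, so these values are uncertain. The site at the 3′ end of Lars2, the mitochondrial leucyl-tRNA synthetase, completed the set with 92, 89, 80 and 75 tags.

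The longest sites were at Chst2, a sulfotransferase gene (2413 bp), Rcor3 (2407 bp), Csf2ra (2362 bp), Kdm7a, a histone demethylase gene (2333 bp), and Fcgr3 (2271 bp), each at a start. At Chst2 the peaks summed to 2413 and 2179 bp in the P0 libraries and 1509 and 1781 bp in the P8 libraries, with pileups of 76, 70, 46 and 43 tags. At Fcgr3 they summed to 2235 and 2047 bp at P0 and to 2070 and 2059 bp at P8.

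Base composition went with membership, although the rule did not use it. Of 15534 RefSeq promoter windows within 1 kb of the gene's outermost base, 8750 (56.3%) overlapped a gene-end site. The median GC content was 62.0% in these and 46.3% in the 5708 windows with no peak in any library, and the ratio of observed to expected CpG was 0.791 against 0.179. The share of windows that overlapped a gene-end site rose step by step with CpG content, from 5.45% of 4404 windows with 0 to 4 CpG through 33.2% with 5 to 9, 71.6% with 10 to 14 and 84.6% with 15 to 19 to 91.5% of 2361 windows with 30 or more. Above 20 CpG the level of the site changed little, with median percentiles of 84.5, 85.0 and 83.6 in the 3 upper bins against 58.3 in the lowest bin.

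The 10 motifs split in the same way. A GC box was present in 69.5% of the windows in gene-end sites, in 47.4% of all 15534 windows and in 12.4% of those with no peak. The ETS motif was present in 19.6%, 12.2% and 2.37%, the YY1 motif in 8.88%, 5.57% and 1.07%, the NRF1 motif in 4.13%, 2.56% and 0.420% and the E-box in 10.7%, 8.11% and 4.12% of the same sets. TATA boxes went the other way, with 6.27% of the windows in gene-end sites, 13.8% of all windows and 26.0% of those with no peak, as did the AP-1 motif with 4.42%, 7.06% and 11.0%. The CRE was in 315 of 8750 windows in gene-end sites and the ZNF143 motif in 0.834% of them, against 2.41% and 0.554% of all windows. Motifs made of G and C are more frequent in windows rich in CpG by composition alone, and these shares were not tested.

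The CCAAT box, bound by the trimeric factor NF-Y, was as frequent in gene-end sites (40.2%) as in windows with no peak (41.1%), yet it followed the height of the site. It was present in 65.7% of the 875 windows in the top 10% by mean pileup percentile and in 29.5% of the 875 in the lowest 10%. The Tomm40, Hspa5 and Evi5l windows above are examples with the box, and other windows of high sites lacked it. Between percentiles of 0 and 80 the share stayed between 29.0% and 31.5%, and above 80 it was 48.7% of 4664 windows. It was highest above a percentile of 80 in each of the 7 bins of CpG content, for example at 57.7% against 37.6% in the next lower level with 15 to 19 CpG, and at 36.1% against 21.3% with 30 or more. The GC box moved less between the lowest and the top 10% (56.6% and 75.1%), and the ETS motif was in 88 and 175 of the 875 windows. This comparison by height was chosen after the values were seen.

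**Figure D3:**
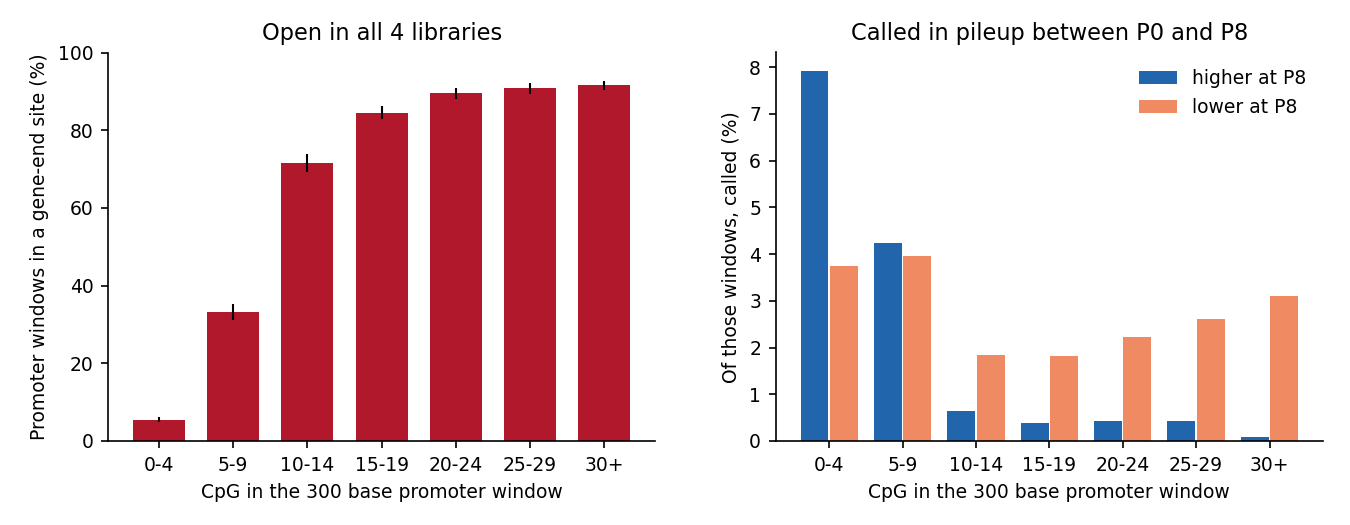
Left, share of RefSeq promoter windows that overlap a gene-end site open in all 4 libraries (percent, with 95% Wilson intervals) by the number of CpG in the 300 base window. Right, share of those windows whose site was called higher (blue) or lower (orange) in pileup at P8, where the blue bars fall from 7.92% with 0 to 4 CpG to 0.0925% with 30 or more and the orange bars stay between 1.82% and 3.95%.

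Whether the height of gene-end sites differed between P0 and P8 was tested next. Since pileup is not scaled for depth, log2 values of all 55259 shared sites were put on a common distribution by quantile normalization, so that each difference is relative to the other shared sites, and sites that closed below the calling threshold in any library are not among them. A shift common to all shared sites is removed by this step. Depth and the global decrease in accessibility that the paper reports at P8 cannot be told apart in it. Of the gene-end sites, 216 (1.57%) were called higher and 396 (2.87%) lower at P8, against 4.96% higher and 4.03% lower over all shared sites (limma, adjusted p under 0.05). Under median centring in place of quantile normalization the counts were 515 higher and 1182 lower. The median log2 difference of P8 minus P0 was −0.09 at gene-end sites and −0.01 over all shared sites. In bulk libraries like these, a smaller share of cells with the site open and a less open site in every cell cannot be told apart. Without any 1 of the 4 libraries no gene-end site kept its call in pileup. The sites called with all 4 libraries then had median log2 differences of 0.71 to 0.75 (higher) and −0.80 to −0.74 (lower). They kept their direction in each case. The normalized values of the P0 and P8 libraries did not overlap at any called site, so that direction was nearly fixed in advance and is no further support.

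The shares called at gene ends were set beside those in gene bodies at a like level, with no test of the difference. Among sites with a mean percentile above 80, 1.65% of 5653 gene-end sites were called higher and 1.91% lower, against 6.81% and 3.70% of 2512 gene-body sites. At percentiles of 0 to 20 the order was not the same in both directions, with 0.436% of 688 gene-end sites called higher and 1.16% lower, against 1.35% and 0.419% of 4061 gene-body sites. Sites near starts only were called higher at 1.23% and lower at 2.59%, and sites near 3′ ends only at 4.91% and 5.49%. Of the 216 higher sites 51 were near 3′ ends only, against 1039 of all 13792 gene-end sites. A gene end lay inside 277 of the 396 lower sites, near the share of all gene-end sites (70.3%), and inside 91 of the 216 higher ones. The higher sites had median pileups of 34 and 28 tags in the P0 libraries and 31 and 35 tags in the P8 libraries, while the median over all members went from 44 and 38 to 22 and 25. The lower sites went from medians of 46 and 42 tags to 14.5 and 16 tags.

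The other readouts of the same peaks gave fewer calls. In fold enrichment 57 gene-end sites (0.413%) were called higher and 178 (1.29%) lower, against 2.39% and 3.05% over all shared sites, and under median centring the split was 252 higher and 217 lower. Without P0 library A or B limma called 0 in either direction in fold enrichment, and without P8 library A or B it called 31 and 41 higher and 177 and 204 lower. In summed length 20 were called higher and 319 lower (2.31%), against 0.566% and 1.97% over all shared sites. Length calls numbered 2 and 1 higher and 0 lower without P0 library A or B, but 172 and 308 higher and 1290 and 1594 lower without P8 library A or B. Of the 216 sites called higher in pileup, 31 were also called in fold enrichment, 11 in length and 3 in all 3 readouts. Of the 396 called lower, 95, 50 and 17 were. The signs matched more widely, with 186 of 216 and 342 of 396 sites having the same sign in fold enrichment.

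**Figure D4:**
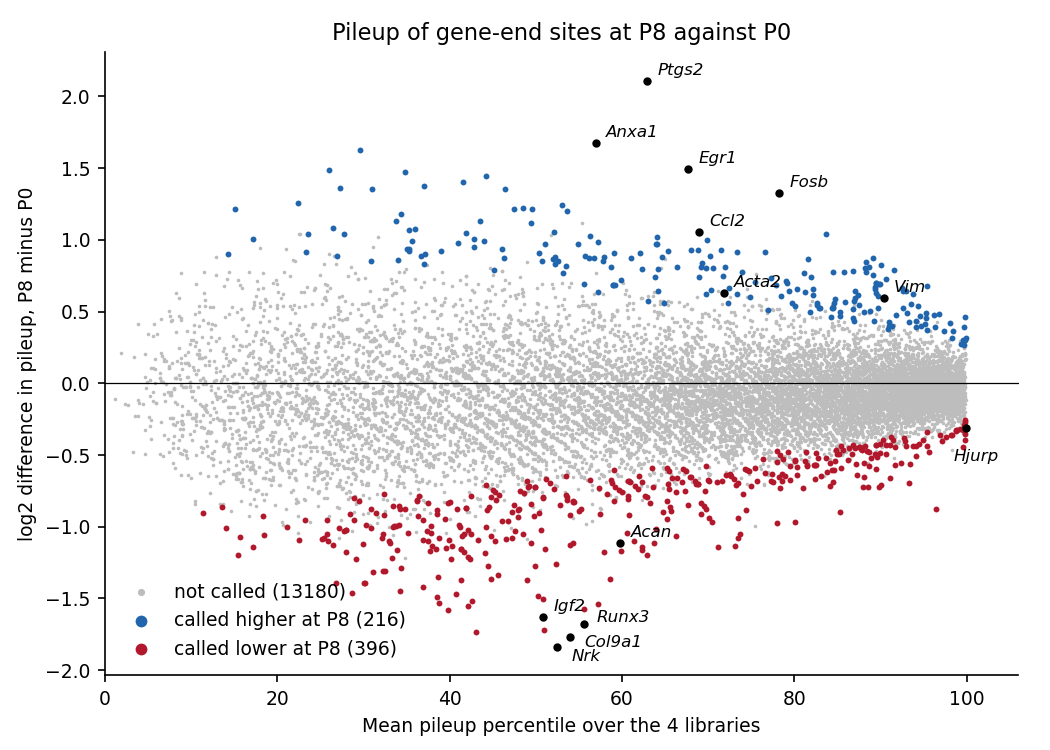
Difference in pileup between passages (vertical axis, log2 of P8 minus P0 after quantile normalization) against the mean pileup percentile (horizontal axis) for the 13792 gene-end sites. Blue points were called higher (216) and red points lower (396) at P8, and the labelled sites run from Ptgs2 at 2.11 to Nrk at −1.84.

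The largest rise was at the 3′ end of Ptgs2, the inducible cyclooxygenase of prostaglandin synthesis. The site at chr1:150108478-150109646, 244 bp beyond the gene, had 22 and 15 tags in the P0 libraries (A, B) against 55 and 52 tags in the P8 libraries. Both P8 libraries had more tags there than both P0 libraries, although they were the shallower ones by the background of the peak caller. Its log2 difference was 2.11 ± 0.13 (SE; limma adjusted p = 0.0233), with 0.81 in fold enrichment (adjusted p = 0.0351) and 1.67 in length (adjusted p = 0.0268). The peaks at this site summed to 561 and 281 bp at P0 and to 1074 and 928 bp at P8.

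Anxa1 and Egr1 followed among the 10 largest rises. The site at the 3′ end of Anxa1, a phospholipid-binding protein that restrains inflammation, had 17 and 17 tags at P0 and 36 and 35 tags at P8, a log2 difference of 1.67 ± 0.17 (limma adjusted p = 0.0233). At Egr1, an immediate early transcription factor, 29 and 17 tags stood against 39 and 43, with a log2 difference of 1.495 in pileup and 2.50 in length (adjusted p = 0.0233 and 0.00701, limma). The libraries of the passages did not overlap at either site. In fold enrichment neither passed the test, with log2 differences of 0.15 at Anxa1 and 0.12 at Egr1, and the local background at Egr1 was 7.83 and 4.91 tags at P0 and 11.1 and 10.3 tags at P8.

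The sites near Nmi, an interferon-induced gene (11, 10, 20 and 22 tags in the same order), and Ptprj, a receptor tyrosine phosphatase (10, 7, 17 and 21), were called higher in both pileup and fold enrichment, with log2 differences in pileup of 1.47 and 1.63. The site at the start of Camp, the cathelicidin antimicrobial peptide, had 17, 8, 19 and 23 tags and a log2 difference of 1.37. The remaining 4 of the 10 largest rises were near Gpcpd1, E130308A19Rik, Gm2007 and the odorant receptor gene Olfr1385, with 6 to 17 tags at P0 and 14 to 26 at P8. At Gm2007 and Olfr1385, which belong to families of similar genes, tags may be shared between copies. Of the 10 largest rises, 5 lay near a 3′ end only, 2 near a start only and 1 near both, and the strand was not known for 2. Sites near 3′ ends only were 51 of the 216 called higher and 1039 of all 13792 gene-end sites.

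Of the 10 largest falls, 6 were near starts only, as were 247 of the 396 sites called lower and 9542 of all 13792 gene-end sites. The site across the start of Nrk had 55 and 56 tags in the P0 libraries (A, B) against 10 and 11 tags in the P8 libraries, a log2 difference of −1.84 ± 0.15 (limma adjusted p = 0.0233). At the start of Col9a1 at chr1:24177259-24177882 there were 57 and 54 tags at P0 and 10 and 12 tags at P8, a log2 difference of −1.77 ± 0.15 (limma adjusted p = 0.0233). A start site of Runx3, a Runt-domain factor of skeletal cells (57, 54, 11 and 12 tags), fell by 1.68 on the log2 scale, and that of Prkcz, an atypical protein kinase C (51, 52, 10 and 11 tags), fell by 1.72. The libraries of the passages stood far apart at each of these sites, with at least 51 tags at P0 and at most 12 at P8.

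The other 6 of the 10 largest falls were near Stt3b, a catalytic subunit of N-glycosylation, Ext2, which polymerises heparan sulfate, the growth factor gene Igf2, Dach2, Clstn3 and Serpinb13, with log2 differences from −1.74 to −1.54. Those of Stt3b, Igf2 and Ext2 were near 3′ ends. Fold enrichment was called lower at 8 of the 10 sites, and the exceptions were Col9a1 (−0.29, adjusted p = 0.389, limma) and Igf2 (0.15, adjusted p = 0.752). The local background was lower at P8 at all 10 sites, for example 4.26 and 3.44 tags at P0 against 1.02 and 0.979 at Nrk. It was 6.83 and 5.43 tags at P0 and 1.02 and 1.29 tags at P8 around the Col9a1 site, and 13.02 and 10.1 against 1.72 and 1.64 around the Igf2 site, where the peaks narrowed from 1207 and 1051 bp to 73 and 126 bp.

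CpG content was then described for the called promoters, with no test. The 76 windows in sites called higher at P8 had a median of 6.5 CpG and an observed to expected ratio of 0.325, and the 224 windows in sites called lower had 23.5 CpG and a ratio of 0.729, against 22 CpG and 0.793 in the 8450 windows not called. The share called higher was 7.92% of the 240 windows in gene-end sites with 0 to 4 CpG, 4.25% with 5 to 9 and 0.0925% of the 2161 with 30 or more. The share called lower was 3.75%, 3.95% and 3.10% in the same bins. The AP-1 motif was present in 9 of the 76 windows called higher (11.8%, 95% Wilson interval 6.36 to 21.0%) and in 12 of the 224 called lower (5.36%, 3.09 to 9.13%), against 4.42% of all windows in gene-end sites and 7.06% of all windows. Windows in gene-end sites with 0 to 4 CpG held it at 10.2% to 26.9%, by height of the site. With 5 to 9 CpG the range was 6.25% to 12.8%, and no comparison at like CpG was made. The GC box was in 35.5% of the windows called higher and 68.8% of those called lower. The ETS motif was in 17.1% and 8.48%.

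Gene lists were then read for their members, with sites counted within 1 kb of either end of a listed gene. Over all 13792 gene-end sites limma called 216 higher and 396 lower in pileup. At an unadjusted p under 0.05 the counts were 825 higher and 2127 lower. The cartilage list, of matrix genes and chondrocyte factors, had the lowest median difference. Of its 28 genes 19 had a gene-end site, at 28 sites, of which 10 were called lower and 0 higher in pileup (limma; 15 sites were lower and 0 higher at an unadjusted p under 0.05), with a median log2 difference of −0.46 against −0.09 over all gene-end sites. The genes without such a site were Chad, Col27a1, Col9a2, Epyc, Matn1, Prg4, Snorc, Sox5 and Ucma.

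At Acan the start site at chr7:79052894-79053467 had 48 and 47 tags in the P0 libraries (A, B) against 15 and 13 tags in the P8 libraries, a log2 difference of −1.11 (limma adjusted p = 0.0299). At Col2a1, the chain of collagen II, the site at chr15:97974348-97975510 had 93, 90, 34 and 41 tags and a difference of −0.88, and the site at chr15:98004389-98005073 had 85, 65, 33 and 33 tags and a difference of −0.57. The starts of Col11a1 (86, 70, 37 and 37 tags) and Col11a2 (66, 58, 21 and 19), of Fgfr3, a receptor that restrains growth plate proliferation (39, 41, 13 and 15), of Cnmd, which encodes chondromodulin (49, 48, 17 and 17), of Matn4 (35, 40, 12 and 14) and of Susd5 (57, 55, 16 and 21) were also called lower. Col11a2 shares its site with the start or end of Rxrb.

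Not all of the list moved. At Sox9, the master regulator of chondrocytes, 1 of 3 sites had 52, 47, 30 and 32 tags with a log2 difference of 0.01, and another had 42, 46, 20 and 15 tags with −0.69 (limma adjusted p = 0.12). The site of Mia, a cartilage-derived secreted protein, is shared with Rab4b and had 83, 82, 58 and 62 tags and a difference of 0.05. In fold enrichment 0 of the 28 sites were called lower and 2 higher, those at Col9a3 and Mia (limma; 1 lower and 7 higher at an unadjusted p under 0.05). Around the sites of this list the median local background was 8.93 and 6.69 tags in the P0 libraries and 3.15 and 3.15 tags in the P8 libraries, against 3.76, 3.02, 2.04 and 2.16 over all gene-end sites, so the local background moved with the pileup, and its part in the pileup result was not tested. Around the Col2a1 site at position 97974348 it was 43.3 and 35.9 tags at P0 and 11.2 and 14.3 tags at P8.

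The fibroblast list, of interstitial matrix and dedifferentiation genes, had the highest median difference of the 13 lists that were not taken from the study's result, at 0.26. Of its 30 genes 26 had a gene-end site, at 39 sites, of which 5 were called higher and 0 lower (limma; 14 sites were higher and 1 lower at an unadjusted p under 0.05). The called sites were at Acta2 (33, 28, 29 and 30 tags; log2 difference 0.63), at the 3′ end of Vim, the mesenchymal intermediate filament (51, 43, 45 and 45; 0.59), at Lox, which crosslinks collagen (51, 41, 42 and 47; 0.61), and at 2 sites between S100a5 and S100a6 (28, 28, 33 and 29 with 0.80, and 53, 48, 42 and 42 with 0.40). Their tags differed little between passages, while the median over all gene-end sites was 44 and 38 tags at P0 and 22 and 25 at P8. The start of Col1a2 had 34, 37, 30 and 33 tags and a log2 difference of 0.51 (limma adjusted p = 0.0716), and a site near Fn1, fibronectin, had 72, 67, 41 and 37 tags and −0.20. In fold enrichment limma called 1 site higher, a site near Ccn2, and 0 lower (4 and 1 at an unadjusted p under 0.05). Col1a1, Mmp3, Prrx1 and Thy1 had no gene-end site open in all 4 libraries.

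The AP-1 list held genes of the Fos and Jun families together with Atf3, Batf, Batf3, Maff, Mafg and Mafk. Of its 13 genes 12 had a gene-end site, at 19 sites, with a median log2 difference of 0.20. Of these sites 3 were called higher and 0 lower (limma; 8 and 1 at an unadjusted p under 0.05), against 1.57% called higher and 2.87% lower over all gene-end sites. The largest difference was at the 3′ end of Fosb, with 29 and 31 tags at P0 and 46 and 51 tags at P8, a log2 difference of 1.33 (limma adjusted p = 0.0233). The start of Fos had 48, 34, 36 and 39 tags (0.56, adjusted p = 0.0447) and a site near Junb 40, 30, 30 and 41 tags (0.70, adjusted p = 0.0401), and at these the libraries of the passages overlapped in raw tags. The start of Jun was near the top of all sites at both passages, with 81, 75, 52 and 56 tags and a difference of 0.03. None of the 3 called sites was called in fold enrichment, where the differences were −0.30, −0.40 and −0.11, and the list had 1 site called lower there, at the 3′ end of Junb (−0.70, adjusted p = 0.0197). The median local background around AP-1 sites was 8.84 and 6.62 tags at P0 and 8.46 and 8.61 tags at P8.

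Called sites were few or absent in each of the housekeeping lists. Over all gene-end sites 1.57% were called higher and 2.87% lower, and the difference was not tested. Gene-end sites were found at 77 of 85 cytosolic ribosomal protein genes, 75 of 78 mitochondrial ribosomal protein genes, 38 of 40 proteasome genes, 83 of 96 genes of the respiratory chain and ATP synthase, 26 of 28 genes of mitochondrial import and porins and 25 of 28 genes of replication. Their median log2 differences ran from −0.15 for cytosolic ribosomal proteins to −0.03 for replication genes, against −0.09 over all gene-end sites. Of 98 sites of cytosolic ribosomal proteins 1 was called higher, at Rps29 (75, 64, 57 and 66 tags; 0.36), and 2 lower, at Rpl39 (39, 36, 13 and 15; −0.79) and Rps12 (46, 47, 15 and 20; −0.75), with 1 higher and 16 lower at an unadjusted p under 0.05. Of 43 proteasome sites 1 was called higher (Psmd5, 26, 19, 26 and 27 tags) and 1 lower (Psmb1, 59, 56, 25 and 28 tags), with 1 and 6 at an unadjusted p under 0.05. Of 101 respiratory chain sites 3 were called lower, at Ndufa10 (55, 50, 15 and 20 tags; −0.94), at the divergent start of Sdha and Ccdc127 (54, 48, 16 and 19; −0.88) and at Ndufa12 (49, 44, 18 and 18; −0.70), with 3 higher and 17 lower at an unadjusted p under 0.05 and 85 negative differences in all. Over all 13792 gene-end sites 825 were higher and 2127 lower at that limit, and 9062 differences were negative. Limma called 0 sites of mitochondrial ribosomal, import or replication genes, with 2 higher and 11 lower, 0 and 3, and 1 and 3 at an unadjusted p under 0.05, and the largest differences there were −0.69 at the shared start of Mrpl10 and Lrrc46, −0.52 at Tomm22 and −0.44 at Mcm2.

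The stress list had the highest median percentile of the lists. All 24 genes of the integrated stress and chaperone list had a gene-end site, and their 29 sites had a median percentile of 94.0 and a median length of 982 bp, against 73.6 and 748 bp over all gene-end sites. Limma called 0 of them, with 3 higher and 2 lower at an unadjusted p under 0.05 and differences from −0.35 to 0.68. Hspa5 had 80, 87, 52 and 51 tags and the site shared by Hsp90b1, the endoplasmic reticulum form of Hsp90, and Ttc41 had 83, 81, 63 and 58 tags. Of 67 histone genes 65 had a gene-end site, at 55 sites that were often shared by several genes, and 4 were called higher and 0 lower (limma; 13 and 0 at an unadjusted p under 0.05), against 1.57% called higher and 2.87% lower over all gene-end sites. Of the 4 called sites, 3 were in the cluster on chromosome 13 (0.32, 0.40 and 0.43) and the other near H1f8, the oocyte linker histone (16, 13, 15 and 21 tags; 0.86). Histone genes are near-identical copies, so how tags were split among them is uncertain.

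Genes of glycolysis (17 of 20) and of antioxidant and glutathione metabolism (23 of 27) had 26 and 28 sites with median percentiles of 90.4 and 88.4, of which 0 were called in either direction by limma (0 higher and 5 lower, and 1 and 1, at an unadjusted p under 0.05), with median differences of −0.09 and 0.05. In glycolysis the lowest values were at Pgk1 (45, 42, 18 and 14 tags; −0.81, limma adjusted p = 0.066), Pdk1 (42, 26, 15 and 12; −0.69) and the site shared by Eno2 and Lrrc23 (34, 27, 11 and 15; −0.66). In the antioxidant list the ends of the range were Nfe2l2, the regulator of the oxidative stress response (25, 17, 18 and 19 tags; 0.45), and Gsr, glutathione reductase (47, 47, 19 and 25; −0.43).

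**Figure D5:**
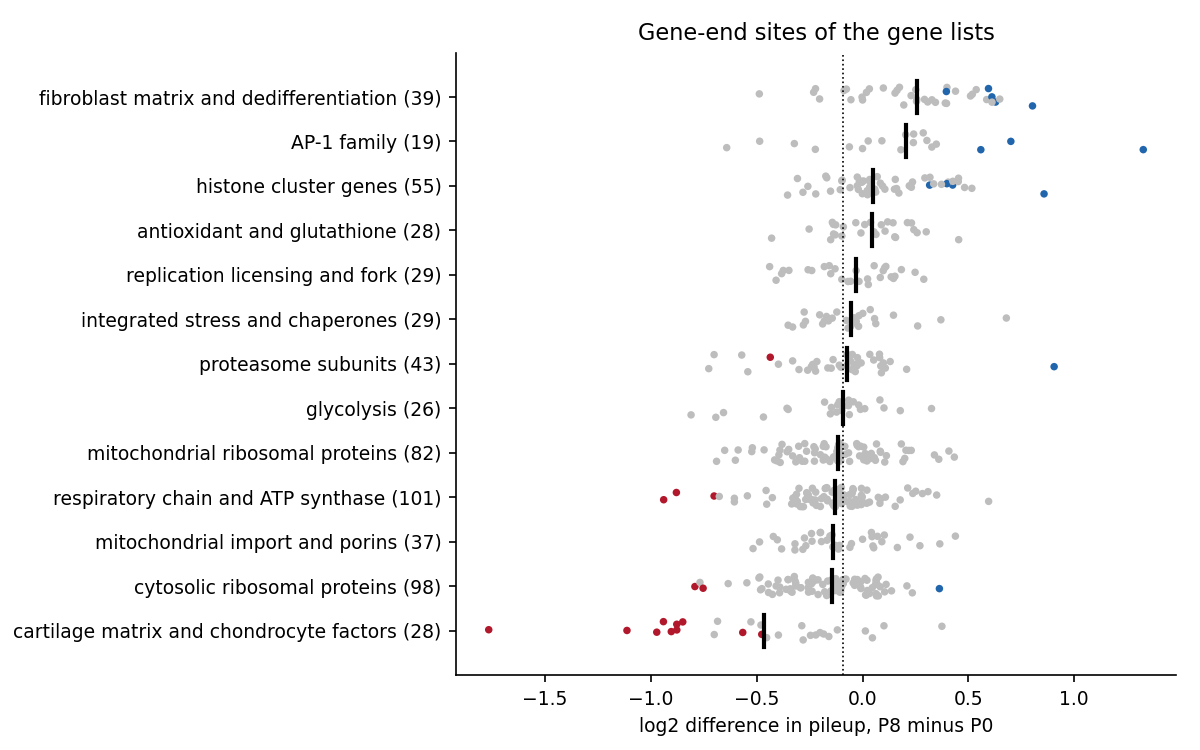
Difference in pileup between passages (horizontal axis, log2 of P8 minus P0) at the gene-end sites of 13 gene lists, with the number of sites in parentheses. Each point is a site, blue where called higher, red where called lower and grey where not called, black bars are list medians, and the dotted line is the median of all gene-end sites at −0.09. The cartilage list lies furthest to the left with a median of −0.46 and the fibroblast list furthest to the right with 0.26.

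Of 7 genes that the study's text names at its ATAC-seq result, 5 had a gene-end site open in all 4 libraries, at 6 sites, and Col1a1 and Gstm2 did not. The study names them for P8-specific regions near promoters, and it found passage-specific peaks with DiffBind under its own thresholds. The sites here have a peak at P0 too, so they may be other regions, and their differences are on another measure. The list was chosen on these samples and is not independent evidence of a direction. The site near Ccl2, a chemokine that recruits monocytes, was called higher, with 32 and 20 tags in the P0 libraries (A, B) against 33 and 35 tags in the P8 libraries, a log2 difference of 1.05 ± 0.15 (limma adjusted p = 0.0282). Its fold enrichment differed by 0.30 (adjusted p = 0.367). The other 5 sites had positive differences that did not pass the test. They were 0.65 and 0.31 at S100a4, a calcium-binding protein of motile cells, 0.50 at Ly6c1, 0.25 at Fbln2, an elastic fibre protein, and 0.12 at Sod3, the extracellular superoxide dismutase. Under median centring 2 of these 5 sites passed, the S100a4 site with the larger difference (0.67, adjusted p = 0.0187) and Ly6c1 (0.47, adjusted p = 0.0416), and Ly6c1 also passed among sites with a mean above the median (adjusted p = 0.0460, limma in each case). The median over the 6 sites was 0.40, and under median centring and with each library left out the sign changed only at Sod3, without P8 library B. Ccl2, like Ly6c1, belongs to a cluster of similar genes, where tags may be shared between copies. Ccl7 had also been put on this list here, although the study's text does not name it, and with its 2 sites (0.73 and 0.59) the median over 8 sites was 0.55.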

How the data were processed

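ATAC-seq libraries of mouse chondrocytes, 2 at P0 and 2 at P8, had been aligned with Bowtie2 and peaks called with MACS2 at default settings in each library by the authors, as their methods and processing notes (genome mm10) state. The deposited peak lists give, per peak, the summit's pileup (a signal, in tags and unscaled), a fold enrichment (a ratio to local background), a length, and p-values and q-values as −log10. A deposited table of the authors' own DiffBind comparison (log2 fold changes, p-values and FDR) was not used. Depth is known here only from the peak caller's background, so intervals and limits on reads are not given; Wilson intervals cover counting error over sites only.

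The methods also describe merging peaks within a group, but the deposited lists still name peaks by library. Peaks overlapping by at least 1 bp were merged. A site took the highest pileup and fold enrichment and the summed peak length of each library. Peaks off chromosomes 1 to 19 and X (1.11% of all) were left out. Gene ends came from the RefSeq table of GRCm38.p6, and strand and promoter windows from RefSeq promoter sequences (17274 genes matched). Local background was computed as (pileup + 1) / fold enrichment − 1. Quantile-normalized log2 values of all 55259 shared sites were fitted with limma 3.58.1 (trend), with Benjamini-Hochberg adjustment over all of them and calls at an adjusted p under 0.05. Single values were compared with exact permutation tests over libraries. Python 3.11.15, scipy 1.17.1 and R 4.3.3 were used, and the scripts were tested on simulated data. Members, gene lists and tests were chosen with earlier results of these data known. Named sites were, by rule, the 10 largest called differences in each direction, the 10 highest and 5 longest sites, each list's called sites (otherwise the 2 to 4 of largest difference), the genes the study names at its ATAC-seq result and, as a range, the sites nearest the 1 kb limit; other genes were chosen after their values were seen. Alternatives changed the scaling, the peak threshold, filters on level and peak number, the distance and the libraries.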

Additional observations from a re-analysis of the deposited data

How the results depend on the processing

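No paired analysis was possible because the peak names carry no replicate number of the labels, so no replicate block was fitted. With a reciprocal overlap of 50% the number of gene-end sites open in all 4 libraries was 7723 in place of 13792. Under median centring, calls in pileup were 515 higher and 1182 lower, and calls in fold enrichment 252 higher. With a −log10 q of at least 5 in every library, 252 were lower in pileup, 110 lower in fold enrichment, and 9 higher and 163 lower in length, and with 1 peak in each library 9 were higher and 149 lower in length. At 0.5 kb from a gene end 37 were higher in fold enrichment and 11 in length, and at 3 kb 406 were higher in pileup, 130 in fold enrichment and 47 in length. With each library left out in turn (2 against 1, the lone library assumed to vary like the other group), calls in pileup were from 0 to 0 in each direction, those in fold enrichment from 0 to 41 higher and from 0 to 204 lower, and those in length from 1 to 308 higher and from 0 to 1594 lower. The many length calls came without P8 library A or B and the few without P0 library A or B. The gap between gene-end and gene-body percentiles kept its sign in all settings, but its difference between passages changed sign in 2 of them, at 0.733 with ranks over all sites and 0.130 for fold enrichment, against −7.68. Both positive values lay inside the spread between libraries of a passage. The causes of these shifts were not tested.

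Among 638 values of 90 named sites under alternatives, 376 kept both sign and call status, 229 kept the sign and lost the call (224 with a library left out and 5 with the stricter peak threshold), 23 gained a call and 10 changed sign. Under median centring Hjurp (0.14), Evi5l (0.35), Scai (0.11), Zyx (0.26), Lars2 (0.41) and Ifrd1 (0.10) turned positive. With each library left out in turn, Lars2 ran from -0.0298 to 0.0191 (negative with all libraries, positive without P0 library B or P8 library B), Csf2ra from −0.199 to 0.01 and Sod3 from -0.0573 to 0.288, both changing sign without P8 library B only. With 2 libraries a passage and no read totals, the depth of each library limits how finely low pileups can be read.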

Other observations

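Of the 421 gene-end sites on chromosome X, 20 (4.75%) were called lower and 2 (0.475%) higher in pileup at P8, against 396 (2.87%) and 216 (1.57%) of all 13792 gene-end sites (limma), a difference that was not tested. At the 8531 sites near the start of 1 gene, summits had quartiles from −66 to 248 bp around the annotated start in P0 library A and from −69 to 258 bp in P8 library B. Spi1, the 1 of 8 blood and macrophage markers with a gene-end site, had 2 sites with median percentiles of 39.2 and 43.2 in the P0 libraries and 38.9 and 38.2 in the P8 libraries, and the sites of the endothelial markers Kdr and Tek had 13.5 and 15.2 against 8.54 and 7.01.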
